A study of Sparus aurata with 9 samples.

Results

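miR-199 and miR-214 were followed in cultured muscle cells of gilthead sea bream (Sparus aurata), a farmed marine fish. They were taken as every entry of the deposited miRNA table named miR-199 or miR-214, with any letter, arm or variant. This gave 11 of 862 entries. One sequence, miR-199-5p, stood under 2 names with equal values and was counted once, which left 10 of 830 distinct sequences, 5 of each miRNA. The cells were primary myoblasts, muscle precursor cells, taken from the fast-twitch muscle of fingerlings. They were used on day 8 of culture, when, as the study describes, they still divided and some had begun to fuse. AA cells spent 12 h in medium lacking amino acids, after which these were supplied for 24 h. IGF1 cells spent the same 12 h without amino acids, followed by 24 h with insulin-like growth factor 1, a hormone that drives muscle growth, in medium still free of amino acids. CTR cells stayed without amino acids for 36 h. By the study's methods the AA medium was DMEM and that of CTR was a salt solution (Earle's) plus glucose and vitamins, and the IGF1 medium also held bovine serum albumin, so that these components cannot be told apart from the amino acids or the growth factor. Small RNA was sequenced in 3 libraries per group. The study describes independent cultures, but its labels tie no library to one of them, and p-values measure only the spread between these libraries.

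MicroRNAs are short RNAs cut as a duplex from a hairpin precursor. One strand of the duplex is usually loaded into the silencing complex, where bases 2 to 8, the seed, choose the messenger RNAs to be repressed. In mouse and human, miR-199a and miR-214 lie close together on a long transcript, Dnm3os, made from the strand opposite the gene of a dynamin, and are known from mesenchymal cells such as fibroblasts, chondrocytes and smooth muscle. In zebrafish, miR-214 acts on the Hedgehog pathway through sufu and shapes the fates of muscle cells. In mouse muscle cells it represses Ezh2, a chromatin regulator, as they differentiate. In mammals miR-199a-3p is known to repress mTOR, the kinase through which amino acids and growth factors drive protein synthesis.

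The 4 main sequences, the most abundant of each arm (the 5p and 3p strands of the 2 miRNAs), are shown first because the comparisons rest on them. They are given 5′ to 3′ as the table lists them, in DNA letters, with the seed in capitals.
miR-199-5p: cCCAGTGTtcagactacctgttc
miR-199-3p, listed as miR-199a_R+1: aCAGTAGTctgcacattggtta
miR-214-3p, listed as miR-214_1ss22AT: aCAGCAGGcacagacaggcagt
miR-214-5p: tGCCTGTCtacacttgctgtgc
The 4 seeds all differ. Outside the 10 sequences no entry with a miRNA name shared a seed with them. A predicted candidate each shared that of miR-214-3p, of its shifted form and of the shorter form of miR-214-5p, both described next. Folded against each other with RNAduplex, miR-199-5p and miR-199-3p formed 18 base pairs at -24 kcal/mol, and miR-214-5p and miR-214-3p formed 17 at -28 kcal/mol. Of the crossed pairs, miR-199-5p with miR-214-3p formed 9 base pairs at -10.1 kcal/mol and miR-214-5p with miR-199-3p formed 16 at -10.5 kcal/mol.

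The other 6 sequences are shown because they differ from the main ones in where they start or end, in single bases or in strand.
miR-214_L+1R+2: tACAGCAGgcacagacaggcagaa
miR-214-5p_L-1: gCCTGTCTacacttgctgtgc
mir-214-2-p5_1ss1TC: cGCCTATCtacacttgctgtgc
miR-199-3p_L-1R+5: aCAGTAGTctgcacattggttacgct
miR-199a-3p_L+2: tCACAGTAgtctgcacattggtt
miR-199b: tAACCAATgtgcagactactgt
The first, a shifted form of miR-214-3p, started 1 base earlier than the main sequence. It also ran 1 base further at its 3′ end, where it ends in aa and the main sequence in t. The second, a shorter form of miR-214-5p, lacked its first base. Both shifts of the 5′ end gave another seed. mir-214-2-p5, named for a second miR-214 hairpin, differed from miR-214-5p by the substitutions T1C and G6A, with positions counted from the 5′ end, and G6A lies in the seed. Of the rare forms of miR-199-3p, miR-199-3p_L-1R+5 kept the seed and ran 4 bases further at its 3′ end, while miR-199a-3p_L+2 started 2 bases earlier. miR-199b was the exact reverse complement of miR-199-3p, and the fold of both gave 22 base pairs. Only 4 of the 830 distinct sequences had their exact reverse complement in the table, the others being mir-34c-p3 and a predicted candidate.

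Library depth was taken as the reads summed over all entries, with the value of 1 read inferred as given under the processing. It ran from 7045311 to 11214788 reads and was highest in AA. A sequence listed under several names was counted under each. A value of 0 allows up to 3 reads, or 2.32 to 3.62 normalized reads depending on the library, if only counting error is considered. CTR replicate 1 stood apart: its values differed from those of the other CTR libraries by a median of 0.523 on the log2 scale, against 0.159 to 0.362 for each other library within its own group. The muscle miRNAs miR-1, miR-133, miR-206 and miR-499 were all listed and together held 8.08% ± 1.43 of normalized reads (SD, n = 9). Their sum lay between 8.67% and 10.1% in AA, between 6.28% and 7.91% in IGF1 and between 6.19% and 8.53% in CTR. Among markers of other cells, the smooth muscle miRNAs miR-143 and miR-145 held 1.44% ± 0.101, endothelial miR-126 held 1.22% ± 0.0761, and cartilage miR-140 held 0.205% ± 0.0195 (SD, n = 9). The blood, epithelial, neural and liver lists each held under 0.05%.

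miR-199-5p dominated these miRNAs. It held 1.96% ± 0.257 of the reads of distinct sequences and ranked 5 among them in each of the 9 libraries, and the 10 sequences together held 2.79% ± 0.327 (SD, n = 9). miR-214-3p ranked 33 with 0.43% ± 0.0696, miR-199-3p ranked 43 with 0.299% ± 0.0836, and miR-214-5p ranked 80 with 0.079% ± 0.0133. The order of these 4 was clear at its ends: the lowest miR-199-5p value, 133630 normalized reads, lay above the highest of miR-214-3p, 44318, and the highest miR-214-5p value, 8033, lay below the lowest of miR-199-3p, 20739. miR-214-3p exceeded miR-199-3p in every library except CTR replicate 1. The shorter form of miR-214-5p averaged 857 ± 138 normalized reads, the shifted form of miR-214-3p 458 ± 95.1 and mir-214-2-p5 67.9 ± 10.1 (SD, n = 9). The capture of small RNAs in library preparation depends on their sequence, so that an order between sequences is one of reads and not of molecules.

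**Figure D1:**
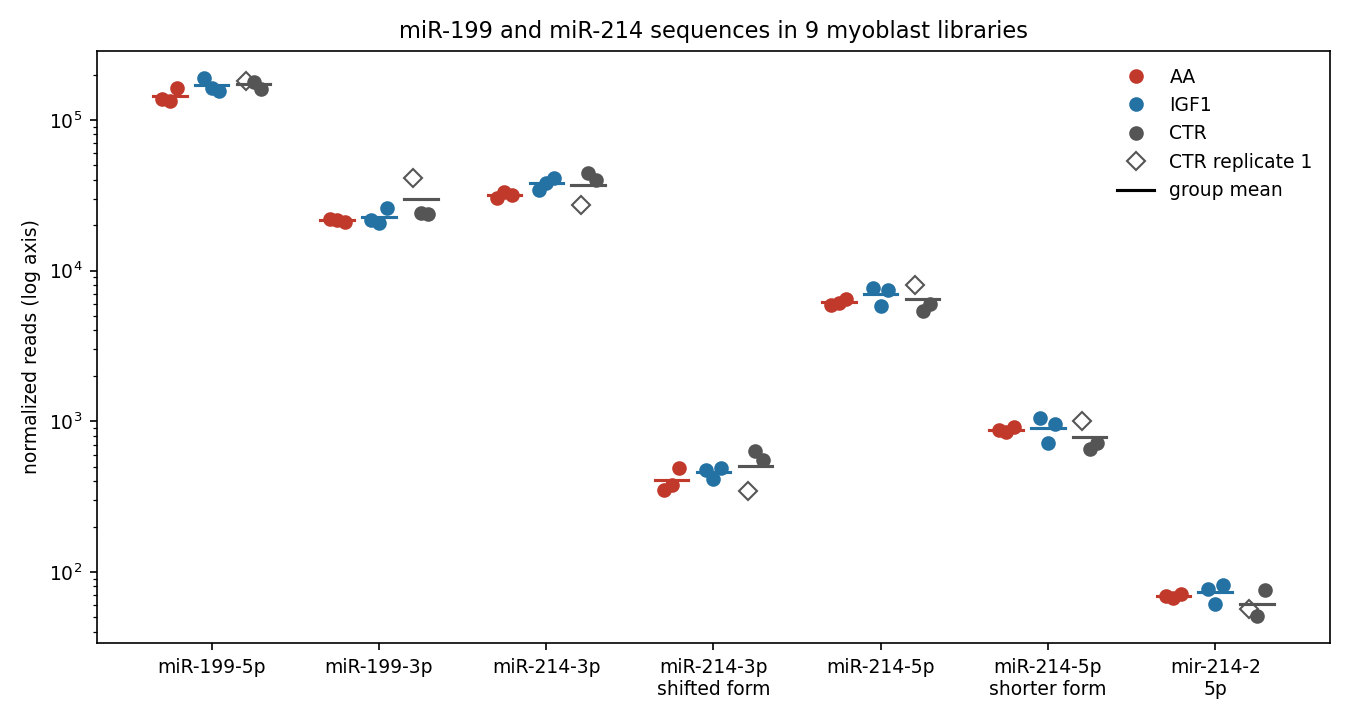
Normalized reads of the 7 tested sequences (log axis) in each of 9 libraries, by group, with the group mean as a bar. miR-199-5p lies at 133630 or above in every library, and CTR replicate 1 (open diamond) lies above the other CTR libraries for miR-199-3p and miR-214-5p and below them for miR-214-3p.

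The comparison of AA with CTR asked whether these miRNAs differ when amino acids return. None of the 7 sequences that passed the filter on low values (at least 10 normalized reads in at least 3 libraries) passed the limma test at an adjusted p of 0.05, and none had an unadjusted p under 0.05. Of all 594 entries tested, 2.36% passed, 1.85% as higher and 0.505% as lower, and 16.5% had an unadjusted p under 0.05. Among the 7 sequences 2 were higher and 5 lower in AA, and 41.9% of all tested entries were lower. The median log2 fold change was -0.20 for the 7 and 0.08 for all tested entries. A fold change here is one of log2(normalized reads + 1).

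miR-199-5p had 137711, 133630 and 161602 normalized reads in AA, against 180477, 179217 and 159987 in CTR. The AA libraries 1 and 2 lay below all CTR libraries, and AA replicate 3 lay just above CTR replicate 3, so that the groups overlapped. The log2 fold change was -0.27 (SE 0.12, limma adjusted p = 0.297). Its 95% interval ran from -0.53 to 0.0006, and the unadjusted limma p was 0.0504, just above 0.05. The adjusted p ran from 0.0912 to 1 over the alternatives. The value of 1 came with quantile normalization, which gives entries of equal rank equal values and set this fold change to 0, as it did in the other comparisons.

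miR-199-3p had 22012, 21666 and 20989 normalized reads in AA, against 41427, 24229 and 23791 in CTR. All AA libraries lay below all CTR libraries, and CTR replicate 1 was 1.73 times the mean of the other CTR libraries. The log2 fold change was -0.42 (SE 0.21, 95% interval from -0.88 to 0.04, limma adjusted p = 0.347). It was -0.156 without CTR replicate 1 and -0.193 with weights per library. miR-199-3p was the only one of the 7 whose AA and CTR groups did not overlap, where 22.6% of all tested entries did not overlap, 9.93% as lower and 12.6% as higher. Without CTR replicate 1 the groups did not overlap in 4 of the 7, with 3 lower and 1 higher, beside 49.5% of all tested entries, 20.4% as lower.

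miR-214-3p had 30315, 33447 and 31650 normalized reads in AA, against 27239, 44318 and 40078 in CTR. The AA libraries lay between the lowest CTR library, replicate 1, and the other CTR libraries. Its log2 fold change was -0.20 (SE 0.18, 95% interval from -0.59 to 0.20, limma adjusted p = 0.575), and -0.407 without CTR replicate 1 or -0.0562 without CTR replicate 2.

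miR-214-5p had 5872, 6109 and 6515 normalized reads in AA, against 8033, 5347 and 5997 in CTR, with the highest and the lowest value both in CTR. Its log2 fold change was -0.05 (95% interval from -0.45 to 0.36) and had the opposite sign after quantile normalization, with weights estimated per library and without CTR replicate 1. The shifted form of miR-214-3p had 352, 380 and 486 normalized reads in AA, against 343, 630 and 549 in CTR (log2 fold change -0.29, limma adjusted p = 0.542), and its fold change was -0.548 without CTR replicate 1 and -0.11 without CTR replicate 2. Among the alternatives run it passed only with weights per library, at a limma adjusted p of 0.0442, the others reaching as high as 0.913. With these weights 104 of all 594 tested entries passed, against 14 in the main fit. The shorter form of miR-214-5p had a log2 fold change of 0.18 and mir-214-2-p5 of 0.20, with intervals that included 0. In these bulk cultures, fewer cells of a type and less RNA per cell cannot be told apart. Taken as sums, 4 of the 8 marker lists did not overlap between AA and CTR, where 22.6% of all tested entries, taken singly, did not overlap. The muscle list was higher in AA, at 8.67% to 10.1% against 6.19% to 8.53% in CTR. Its most abundant sequence, miR-206, did not pass (log2 fold change 0.31, limma adjusted p = 0.347), while 5 of its 13 tested sequences passed as higher. Lower in AA were cartilage miR-140, at 0.176% to 0.198% against 0.204% to 0.232% in CTR, the epithelial list, at 0.00511% to 0.00597% against 0.00802% to 0.00993%, and liver miR-122, at 0.00356% to 0.0046% against 0.00598% to 0.00741%. Within the epithelial list a form of miR-203a passed as lower (log2 fold change -1.39, limma adjusted p = 0.00994). Another form of miR-203a was lower without passing (-1.06, limma adjusted p = 0.0603). miR-200b (-0.30), miR-429b (-0.25) and miR-200a (0.31) of that list did not pass. Cartilage miR-140 (-0.20, limma adjusted p = 0.514), miR-140-5p (-0.06, limma adjusted p = 0.91) and liver miR-122 (-0.77, limma adjusted p = 0.0575) did not pass either. The part of these lists in the miR-199 and miR-214 values was not tested.

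**Figure D2:**
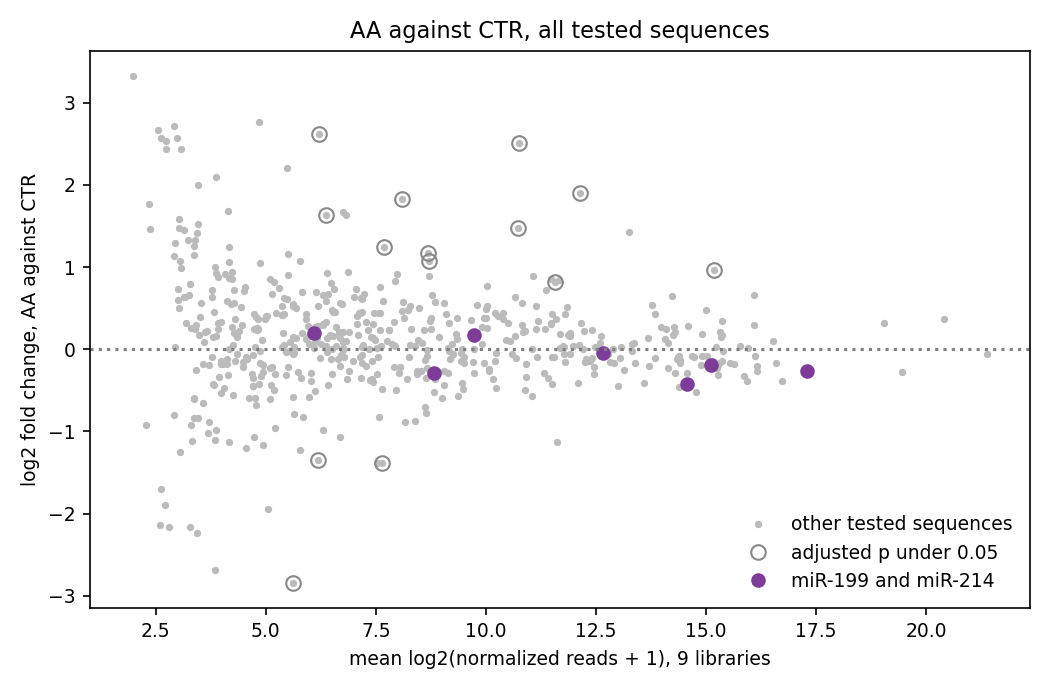
Log2 fold change of AA against CTR (y) against mean abundance as log2(normalized reads + 1) over 9 libraries (x) for each tested sequence. The 7 miR-199 and miR-214 sequences lie between -0.42 and 0.20, while the circled sequences have an adjusted p under 0.05.

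For the growth factor the question was the same, with IGF1 set against CTR. None of the 7 sequences passed in limma, none had an unadjusted p under 0.05, and 0% of all tested entries passed, with 10.3% at an unadjusted p under 0.05. Here 4 sequences were higher and 3 lower, where 45.3% of all tested entries were lower. The median log2 fold change was 0.06 beside 0.05 for all tested entries. miR-199-5p had 190566, 162246 and 156629 normalized reads in IGF1, against the CTR values given above, with a log2 fold change of -0.03 and an interval from -0.30 to 0.24. miR-199-3p had 21547, 20739 and 26188 normalized reads in IGF1, and IGF1 replicate 3 lay above CTR replicates 2 and 3. Its log2 fold change was -0.34 (SE 0.21, interval from -0.81 to 0.12, limma adjusted p = 0.575), and -0.0807 without CTR replicate 1. miR-214-3p had 34384, 38344 and 41155 normalized reads in IGF1, within the range of CTR, and a log2 fold change of 0.06 (interval from -0.34 to 0.45), which was below 0 without CTR replicate 1 (-0.155), without IGF1 replicate 3 (-0.0051) and with weights per library (-0.0889). miR-214-5p had 7692, 5829 and 7468 normalized reads in IGF1 and a log2 fold change of 0.13 (interval from -0.28 to 0.53). The groups overlapped for each of the 7 sequences, where 13.3% of all tested entries did not overlap, 5.56% as higher and 7.74% as lower.

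AA and IGF1 cells were also compared directly, as the test of whether the responses differ. All 7 sequences averaged lower in AA. Their median log2 fold change was -0.17, beside 0.00 for all tested entries, of which 50% were below 0. None passed in limma and none had an unadjusted p under 0.05, where 0.842% of all tested entries passed and 8.75% had an unadjusted p under 0.05. The groups did not overlap for miR-214-3p alone among the 7, with AA below IGF1 (log2 fold change -0.25, SE 0.18, interval from -0.65 to 0.14, limma adjusted p = 0.858), where 15.3% of all tested entries did not overlap, 5.72% as lower and 9.6% as higher. miR-199-5p had a log2 fold change of -0.23 (SE 0.12, interval from -0.50 to 0.03, limma adjusted p = 0.658), and its lowest IGF1 value, in replicate 3, lay below the highest AA value. The signs of the shorter form of miR-214-5p, mir-214-2-p5 and miR-199-3p turned with IGF1 replicate 3 left out (0.0226, 0.00226 and 0.0278), and that of the shorter form also without IGF1 replicate 1 (0.0865).

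**Figure D3:**
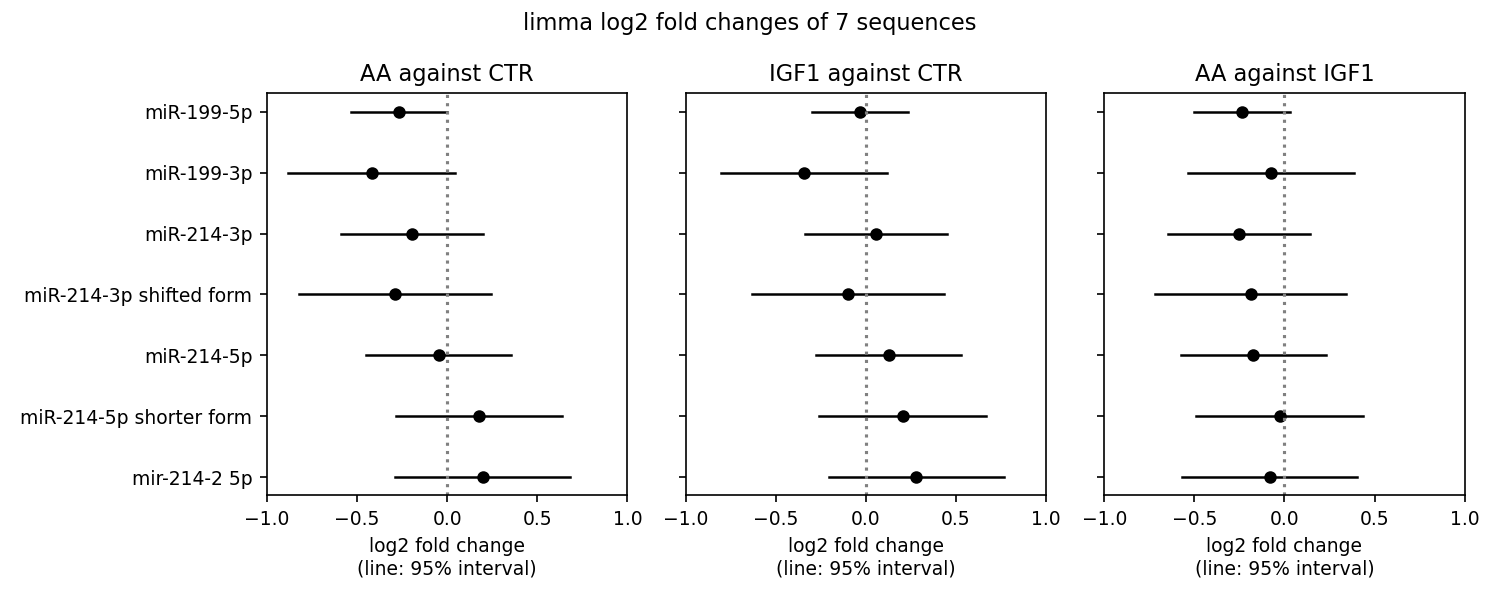
Log2 fold changes of the 7 tested sequences in limma in the 3 comparisons (AA or IGF1 against CTR, and AA against IGF1), with 95% intervals as lines. Every interval includes 0, and those of miR-199-5p are the shortest, with an SE of 0.12.

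In spread within groups, miR-199-5p had a residual SD of 0.134 on the log2 scale, smaller than that of all but 14.5% of 165 distinct sequences with a mean of at least 1000 normalized reads, whose median was 0.226. The others lay near that median, with 0.283 for miR-199-3p, 0.231 for miR-214-3p and 0.22 for miR-214-5p.

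In reads, miR-199 and miR-214 favoured opposite arms, though no sequence was assigned to a single hairpin. For miR-199 the 5p arm exceeded the 3p arm in every library, by 6.26, 6.17 and 7.70 times in AA, 8.84, 7.82 and 5.98 times in IGF1 and 4.36, 7.40 and 6.72 times in CTR. For miR-214 the 3p arm exceeded the 5p arm in every library, by 5.16, 5.47 and 4.86 times in AA, 4.47, 6.58 and 5.51 times in IGF1 and 3.39, 8.29 and 6.68 times in CTR. A ratio within a library does not depend on how that library was scaled. The log2 arm ratio of miR-199 differed by 0.15 between AA and CTR (exact permutation p = 0.8, two-sided, n = 3 each) and by 0.31 between IGF1 and CTR (exact permutation p = 0.4), or 0.0794 without CTR replicate 1. That of miR-214 differed by -0.15 and -0.07 (exact permutation p = 0.8 and 0.9). With 3 libraries against 3 the smallest p is 0.1, so that these tests could not pass, and 18 of them were run on ratios and shares.

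CTR replicate 1 held the lowest arm ratio of both miRNAs. In it the 3p arm of miR-199 was 1.73 times and the 5p arm of miR-214 1.42 times the mean of the other CTR libraries, while miR-214-3p was 0.645 times and miR-199-5p 1.06 times that mean. The ratio of miR-199-3p to miR-214-3p was 1.52 there, against 0.547 and 0.594 in the other CTR libraries. It was 0.726, 0.648 and 0.663 in AA and 0.627, 0.541 and 0.636 in IGF1, so that AA and IGF1 did not overlap (log2 difference 0.18, exact permutation p = 0.1, adjusted over the 18 tests 0.45). The AA against CTR difference of the log2 ratio, -0.22, was 0.252 without CTR replicate 1, and that of IGF1 against CTR, -0.40, was 0.0741.

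**Figure D4:**
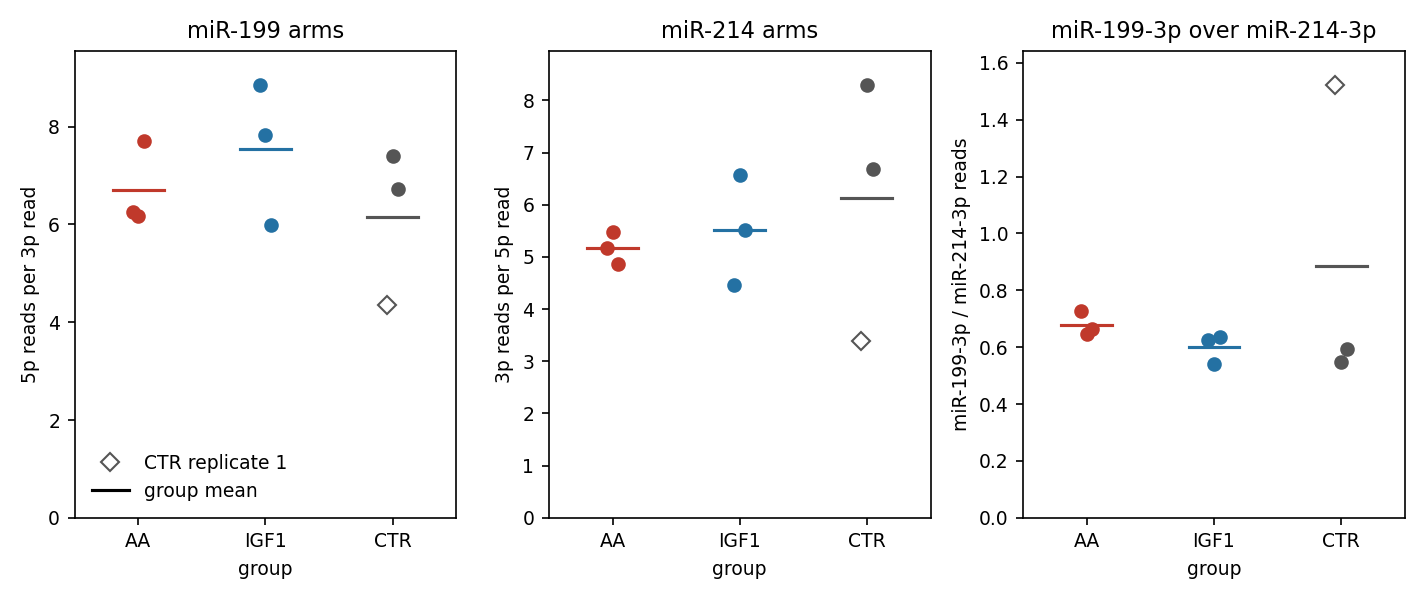
Ratios of normalized reads within each library (linear axes from 0): miR-199-5p over miR-199-3p, miR-214-3p over miR-214-5p, and miR-199-3p over miR-214-3p, with group means as bars. CTR replicate 1 (open diamond) has the lowest arm ratios, 4.36 and 3.39, and the highest ratio of miR-199-3p to miR-214-3p, 1.52.

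Over the 9 libraries no pair of the 4 main sequences had a correlation that passed. The 6 pairs had Pearson r between -0.456 and 0.564 (exact permutation p between 0.126 and 0.733, adjusted p of at least 0.441) and Spearman rho between -0.45 and 0.267 (exact permutation p between 0.23 and 0.982, adjusted p of 0.982 each). For miR-199-3p and miR-214-3p, r was -0.372 over all libraries and 0.691 without CTR replicate 1. Without the 2 libraries farthest from the median of miR-199-3p it was 0.67. For miR-199-3p and miR-214-5p, r was 0.564 over all libraries, 0.124 without CTR replicate 1 and -0.476 without the 2 farthest libraries. With the group means removed, r was -0.758 for miR-199-3p with miR-214-3p and 0.803 for miR-199-3p with miR-214-5p. It was -0.764 for miR-214-3p with miR-214-5p. CTR replicate 1 differed from the other CTR libraries by 0.787 for miR-199-3p, -0.630 for miR-214-3p and 0.505 for miR-214-5p on the log2 scale. These r with group means removed are not given without that library.

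The miR-214-5p arm held the largest part of its reads outside the main sequence. In percent of the reads of that arm, the other forms made up 13.8, 13.1 and 13.1 in AA, 12.7, 11.7 and 12.2 in IGF1 and 11.6, 11.6 and 11.7 in CTR. The AA libraries lay above all IGF1 and CTR libraries. The IGF1 libraries lay above all CTR libraries, though not clear of the counting error given below. The difference was 1.68 percentage points for AA against CTR, 0.596 for IGF1 against CTR and 1.09 for AA against IGF1 (exact permutation p = 0.1 each, the smallest that 3 against 3 can give, adjusted over the 18 tests 0.45 each). The shares rest on 5244 to 10045 inferred reads per library. The 95% Wilson interval, which covers counting error only, was 12.4% to 13.8% in AA replicate 2, the lowest AA library. In CTR replicate 3, the highest CTR library, it was 10.9% to 12.5%, so that these intervals overlapped slightly. The interval of every IGF1 library overlapped that of CTR replicate 3 as well, with 12.1% to 13.4% in IGF1 replicate 1, the highest. The CTR shares had an SD of 0.0431 percentage points, far narrower than the interval of any of them. The shorter form carried most of this part, with 14.2 ± 0.51 reads per 100 reads of the main sequence in AA, 12.9 ± 0.70 in IGF1 and 12.2 ± 0.233 in CTR (SD, n = 3 each). mir-214-2-p5 had 1.12 ± 0.0538, 1.05 ± 0.0493 and 0.971 ± 0.275 in the same order of groups. The arm had a mean of 8458 inferred reads in AA, 7939 in IGF1 and 6300 in CTR, the order of the shares. Library by library the order differed, since IGF1 replicate 1 had the most reads, 10045, and a share of 12.7%, below every AA library. The part of depth in the difference was not tested. The shifted form made up between 1.07% and 1.51% of the miR-214-3p reads over the 9 libraries (exact permutation p of at least 0.3 for each comparison).

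**Figure D5:**
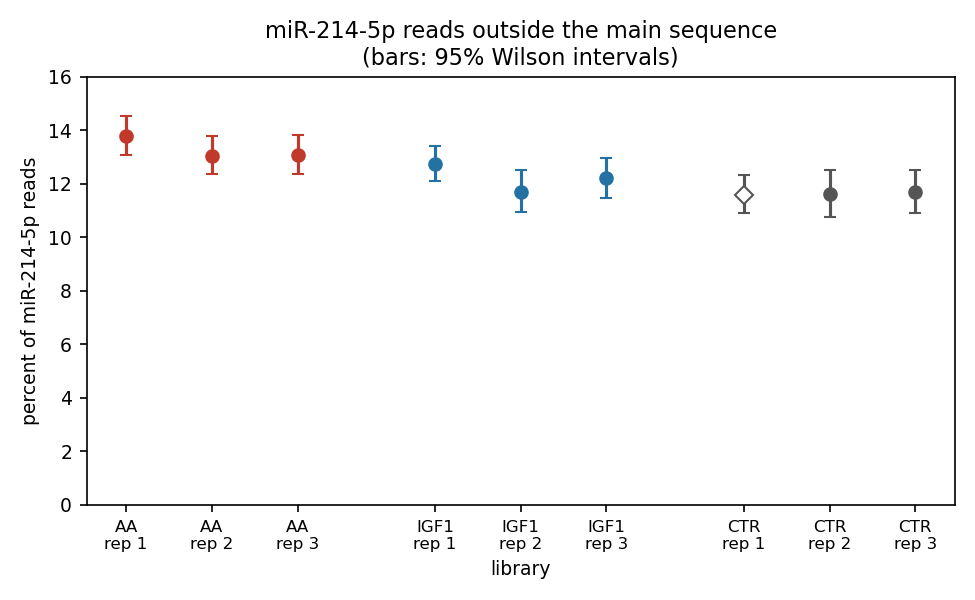
Percent of miR-214-5p reads outside its main sequence in each library, with 95% Wilson intervals from the inferred reads as bars and a y axis from 0. The AA libraries lie at 13.1% to 13.8%, above the CTR libraries at 11.6% to 11.7%.

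The 3 sequences that did not pass the filter were near the limit of detection. miR-199b, the reverse complement of miR-199-3p, was listed in all 9 libraries, with a mean of 4.83 ± 1.75 normalized reads in AA, 4.67 ± 2.54 in IGF1 and 3.46 ± 1.36 in CTR (SD, n = 3 each). These came to between 2 and 7.33 inferred reads, some of them fractions of a read. miR-199-3p_L-1R+5 was listed above 0 in 5 libraries, at most at 8.70 normalized reads, in IGF1 replicate 3. miR-199a-3p_L+2 was listed above 0 in 3 libraries, 1 of each group, at most at 10.4, in CTR replicate 2. At this depth these 3 sequences could not be compared between groups.

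The sequences whose log2 values followed miR-199-5p, miR-199-3p and miR-214-3p most closely over the 9 libraries were sought among 445 named sequences, as a description over libraries of shared normalization. For miR-199-5p these were miR-10955 (r = 0.862) and 2 forms of miR-22b (r = 0.844 and 0.825). For miR-214-3p they were miR-23b (r = 0.931), miR-103-5p (r = 0.887) and miR-140 (r = 0.876), a miRNA known from cartilage. For miR-199-3p they were a form of miR-99 (r = 0.933), miR-132-3p (r = 0.873) and miR-24c (r = 0.848), and without CTR replicate 1 these r were 0.225, 0.811 and 0.558. The miR-199 and miR-214 sequences themselves were left out of this search.

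Other miRNAs known from mesenchymal tissue or smooth muscle (miR-21, miR-22, miR-29, miR-140, miR-143, miR-145 and miR-152, any arm) had 38 tested sequences. In AA against CTR 1 of them rose and 2 fell, with a median log2 fold change of 0.05. The one that rose was a form of miR-145-3p, from the less abundant arm of a miRNA known from smooth muscle (0.82, SE 0.16, limma adjusted p = 0.0271). Those that fell, mir-29a-1-p5 (-1.35) and mir-29d-p5 (-2.84), were rare 5p strands of miR-29, with means of 78.4 and 66.6 normalized reads. No other miR-29 sequence passed. The most abundant, a form of miR-29b-1-5p and thus also a 5p strand, had -0.41 (limma adjusted p = 0.186). The 5p strands mir-29b-1-p5 (-0.56, limma adjusted p = 0.12) and the rare miR-29b-3-5p (-0.92, limma adjusted p = 0.718) were below 0 as well. Among the other abundant ones, miR-29a had 0.16 (limma adjusted p = 0.772) and a form of miR-29c had -0.15 (limma adjusted p = 0.702). The same form of miR-145-3p was the only one to pass in AA against IGF1 (0.94, limma adjusted p = 0.0309). None passed in IGF1 against CTR, where the median was 0.19. Of 13 tested sequences of the muscle miRNAs, 5 rose in AA against CTR and none fell, with a median of 0.96. Of all tested entries 1.85% passed as higher and 0.505% as lower. Those that rose were miR-1 and 5p strands of miR-1, miR-133a, miR-133b and miR-206. The abundant miR-206 (0.31, limma adjusted p = 0.347), a form of miR-133a (0.65, limma adjusted p = 0.0689) and miR-499 (0.86, limma adjusted p = 0.111) did not pass. None of the 13 passed in IGF1 against CTR, with a median of 0.23. Both lists were picked with results of these libraries known, so that these counts are a description.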

How the data were processed

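The 9 small RNA libraries were made and sequenced as single-end reads by a company, LC Sciences. As the study states, adapters and low-quality reads were removed with in-house scripts, and unique sequences of 18 to 26 nt were assigned by BLAST to miRBase precursors. The sources used here give no normalization formula or genome build, and genome positions were not analysed here. The deposited values are normalized reads, a signal per entry and library. A deposited p-value per entry over the 3 groups was not used, and the deposited group means were not needed. The value of 1 read was taken as the largest step at which at least 75% of values under 150 were whole reads within 0.02. At that step between 80.8% and 84.3% per library were whole, so whole reads were not recovered throughout and count models were not run.

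Values entered as log2(normalized reads + 1). Entries reaching 10 normalized reads in 3 or more libraries were fitted in limma 3.58.1 (R 4.3.3) with an intensity trend over all 9 libraries. The p-values were adjusted by Benjamini-Hochberg over 594 entries and called at 0.05 whatever the fold, the threshold of the study for miRNAs. Only this threshold was taken from the study, whose methods name no test for miRNAs. It reports many more changed miRNAs for AA than were called here, and changed miRNAs for IGF1 too. Ratios and shares were compared by two-sided exact permutation tests in Python 3.11.15 with scipy 1.17.1 and pandas 2.3.3, and duplexes were folded with ViennaRNA 2.7.2. Every miR-199 and miR-214 sequence was named, and the 3 sequences most like each of miR-199-5p, miR-199-3p and miR-214-3p. The members and lists were chosen with earlier results of these data known. Alternatives were the pseudocount, filter, scaling, trend, weights, replicate block and leaving out each library.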

Additional observations from a re-analysis of the deposited data

How the results depend on the processing

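Over 21 alternatives per comparison, 421 of 438 values of single miR-199 and miR-214 sequences kept their direction and their side of the threshold, 13 changed sign, 3 were 0 and 1 passed. Many of these directions were fixed in advance. The filter, the trend, the block, entering identical sequences once and leaving out libraries of the group not compared do not change a fold change. In those fits only the adjusted p could move. With weights per library 1 sequence passed in AA against CTR (the shifted form of miR-214-3p, -0.496), where 104 of all 594 tested entries passed. The log2 fold change with these weights was 0.0477 for miR-214-5p in AA against CTR. In IGF1 against CTR it was 0.0359 for miR-199-5p and -0.0889 for miR-214-3p. Quantile normalization gave 0.017 for miR-214-5p and -0.104 for miR-214-3p in AA against CTR, and 0 for miR-199-5p in all 3 comparisons, since that sequence ranked 5 in every library.

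Calls over the whole table, 14 for AA against CTR, 0 for IGF1 against CTR and 5 for AA against IGF1, came to 104, 5 and 20 with weights per library and to 31, 2 and 10 with the replicate block. The block changed no call of a miR-199 or miR-214 sequence. The labels do not say that a number marks a culture, so the main fit did not pair libraries by replicate number. Deviations of same-numbered libraries correlated at -0.115 to 0.401 over 9 pairs. Of these, 6 exceeded each of the 18 pairs with different numbers (-0.377 to 0.259), though not every library correlated best with its own number. Whether same-numbered libraries share a culture was not tested, and the unpaired tests do not use such a pairing. AA against IGF1 had 9 calls at a mean of at least 100 normalized reads and 1 without the intensity trend. Leaving out 1 library gave 8 (without AA replicate 2) to 40 (without CTR replicate 1) calls for AA against CTR, 0 to 2 for IGF1 against CTR and 1 to 13 for AA against IGF1.

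Leaving out 1 library moved log2 differences across 0 as follows. The miR-199 arm ratio ran from -0.0799 to 0.302 for AA against CTR. The miR-214 arm ratio ran from -0.529 to 0.116 for AA against CTR, from -0.449 to 0.196 for IGF1 against CTR and from -0.223 to 0.0557 for AA against IGF1. The ratio of miR-199-3p to miR-214-3p ran from -0.487 to 0.252 for AA against CTR and from -0.664 to 0.0741 for IGF1 against CTR. In percentage points, the share of other forms of miR-199-3p ran from -0.013 to 0.0155 and from -0.00493 to 0.0236 for the same comparisons, and that of miR-214-3p from -0.0664 to 0.136 for AA against IGF1. Fold changes on the log2 scale ran from -0.172 to 0.121 for miR-214-5p in AA against CTR. In IGF1 against CTR they ran from -0.118 to 0.0237 for miR-199-5p, from -0.155 to 0.196 for miR-214-3p and from -0.359 to 0.0783 for its shifted form. In AA against IGF1 they ran from -0.205 to 0.00226 for mir-214-2-p5, from -0.14 to 0.0278 for miR-199-3p and from -0.191 to 0.0865 for the shorter form of miR-214-5p. Values that moved by over 1.5 times without crossing 0 included these. For AA against CTR miR-199-3p ran from -0.556 to -0.156 and miR-214-3p from -0.407 to -0.0562, and for IGF1 against CTR miR-199-3p ran from -0.481 to -0.0807, miR-214-5p from 0.00063 to 0.294 and the miR-199 arm ratio from 0.0794 to 0.47. The cause of these changes was not tested.

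For the share of other forms of miR-214-5p no groups overlapped, so that leaving out 1 library could not change the sign of a difference. Its size ran from 1.44 to 1.81 percentage points for AA against CTR, 0.336 to 0.854 for IGF1 against CTR and 0.826 to 1.34 for AA against IGF1. Counts of sequences whose groups did not overlap, a measure left out library by library only after the data were seen, ran from 1 to 4 for AA against CTR, 0 to 1 for IGF1 against CTR and 1 to 4 for AA against IGF1, where the share over all tested entries was 25.9% to 49.5%, 19.2% to 43.3% and 19.5% to 28.3%, above that with all libraries in each case. The 3 sequences near 0 could not be compared at this depth.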
